A study of Drosophila melanogaster with 10 samples.

Results

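The genes described here encode the DNA replication machinery of the fruit fly, from origin recognition to the supply of nucleotides. They are a list of 47 gene symbols chosen for their role, with no measured value in the rule. The expression table held rows for 44 of them, out of 15240 gene symbols in all, and these 44 genes had 62 of its 30551 transcript entries. The other 3 symbols had no row and were dropped. PCNA is a synonym of mus209 and RfC40 a synonym of RfC4, both of which were present. l(1)G0095 is listed by RefSeq as a synonym of IntS4, a subunit of the Integrator complex, which is not a replication gene. The study manipulated Polyhomeotic (Ph), a Polycomb group protein that polymerizes, in S2 cells, a cultured Drosophila line of embryonic origin, to learn what its polymerization does to chromatin and gene expression. Its 10 samples form 5 groups of 2 replicates. They are PH-ML and PH-WT chromatin immunoprecipitations (ChIP), PH-ML and PH-WT input DNA, and RNA of S2 cells with genotype WT. The S2 RNA group, the one analysed here, carried neither Ph transgene. Per the labels 0.5 mM copper sulphate was added for 3 days, and the study's methods state this for the S2 cells too. Of the remaining 8 samples nothing was analysed here, and no conditions are compared.

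Replication of DNA starts at origins. The origin recognition complex (ORC) marks them, and with Cdc6 and the Cdt1 protein it loads the ring-shaped MCM helicase in G1 phase, a step called licensing. In S phase Cdc45 and the GINS complex turn the loaded ring into the active helicase, primase and the polymerases copy the strands, and a sliding clamp keeps the polymerases on the template. The transcription of many of these genes in flies is driven by E2F at the entry into S phase. The RNA came from whole cultures, so fewer cells with a transcript and less transcript per cell cannot be told apart.

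Levels are RPKM, the reads on a transcript scaled to its length and to the size of the library, which allows genes of different length to be compared. The level of a gene is the median over its transcript entries in each library, with errors given as the SD of the 2 replicates. Library sizes recovered from the values were 37054213 reads for replicate 1 and 9495835 reads for replicate 2. For a transcript of 1 kb the value of 3 reads was 0.0810 RPKM in the deeper library and 0.316 RPKM in the shallower one, and every replication gene lay above both. The minimum number of reads on the best covered entry of a gene was from 64 (Orc2) to 5432 (Top2) in replicate 1, and from 15 to 1327 in replicate 2 for the same genes. The label of the cells was set against markers. Of 10 plasmatocyte (blood cell) markers 5 reached 5 RPKM, and their summed level was 135 and 126 RPKM in the 2 libraries, with a combined level of 2.83 RPKM. Most of the sum came from Pvr, a growth factor receptor gene, at 72.6 and 69.5 RPKM, and from crq, a scavenger receptor gene, at 32.1 and 29.0 RPKM. Others were near the floor or low, with He at 0.0401 and 0 RPKM and Hml at 1.21 and 1.14 RPKM. None (0) of the 4 neuron, 4 muscle and 5 fat body and gut markers reached 5 RPKM, with elav highest among them at 2.31 and 3.34 RPKM, and the muscle marker up was at 0 in both libraries. Of 4 germline markers only aub did, at 5.15 and 4.96 RPKM.

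All 44 replication genes were expressed above a mean of 1 RPKM, against 49.5% of all genes. A mean of 5 RPKM was reached by 28 of the 44 genes (63.6%), against 29.5% of all genes, and 10 RPKM by 16 of them, against 16.3% of all genes. The combined level, which is the median of the gene levels after averaging the replicates as log2(RPKM + 1), was 6.27 RPKM for the replication genes, and the replicates had medians of 6.48 and 5.82 RPKM (SD 0.461, n = 2). For all genes it was 0.898 RPKM. Over the 7548 genes whose mean was 1 RPKM or more, called expressed genes below, it was 6.31 RPKM, and 59.5% of those genes reached 5 RPKM. The replication genes were thus high among all genes and in the middle of the expressed ones.

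**Figure D1:**
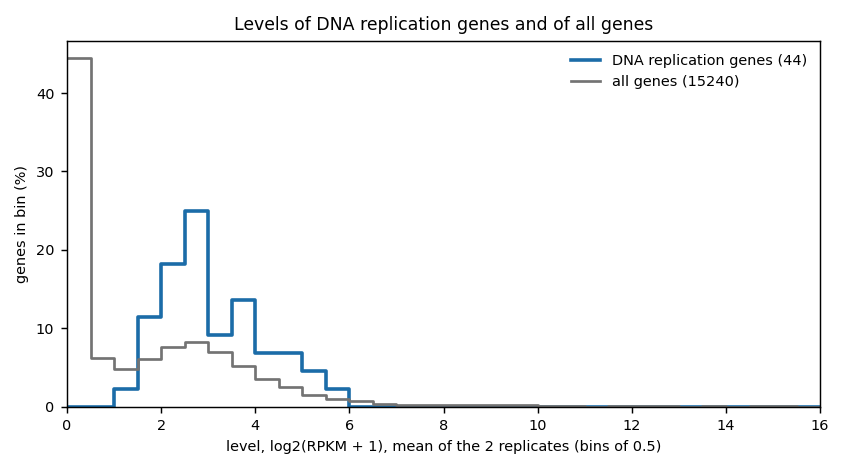
Share of genes in bins of 0.5 of the level on the log2(RPKM + 1) scale (x axis; mean of the 2 replicates), in percent of the genes of each set (y axis). The 44 replication genes (blue) had none in the lowest bin, which held 44.4% of all 15240 genes (grey), and 25.0% of them lay between 2.5 and 3.0.

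The members differed widely among themselves. The highest, dUTPase, was 31.7-fold above the lowest, rec. Of the 946 pairs of replication genes, 898 (94.9%) stood in the same order in both libraries. Neighbours in the order were harder to tell apart. Of the 43 pairs of adjacent genes 31 had overlapping replicate values, and 12 did not. By combined level the nucleotide supply, single-strand binding and topoisomerase genes came first, clamp and helicase genes lay in the middle, and helicase activation, polymerase and origin recognition genes came last of the groups with more than 1 gene. The groups ran into each other. Of the 10 pairs of neighbouring groups in this order 8 overlapped in their values and 2 did not, and the polymerase and helicase activation genes changed places between the libraries, with medians of 4.36 and 4.35 RPKM in replicate 1 and of 3.35 and 4.54 RPKM in replicate 2.

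**Figure D2:**
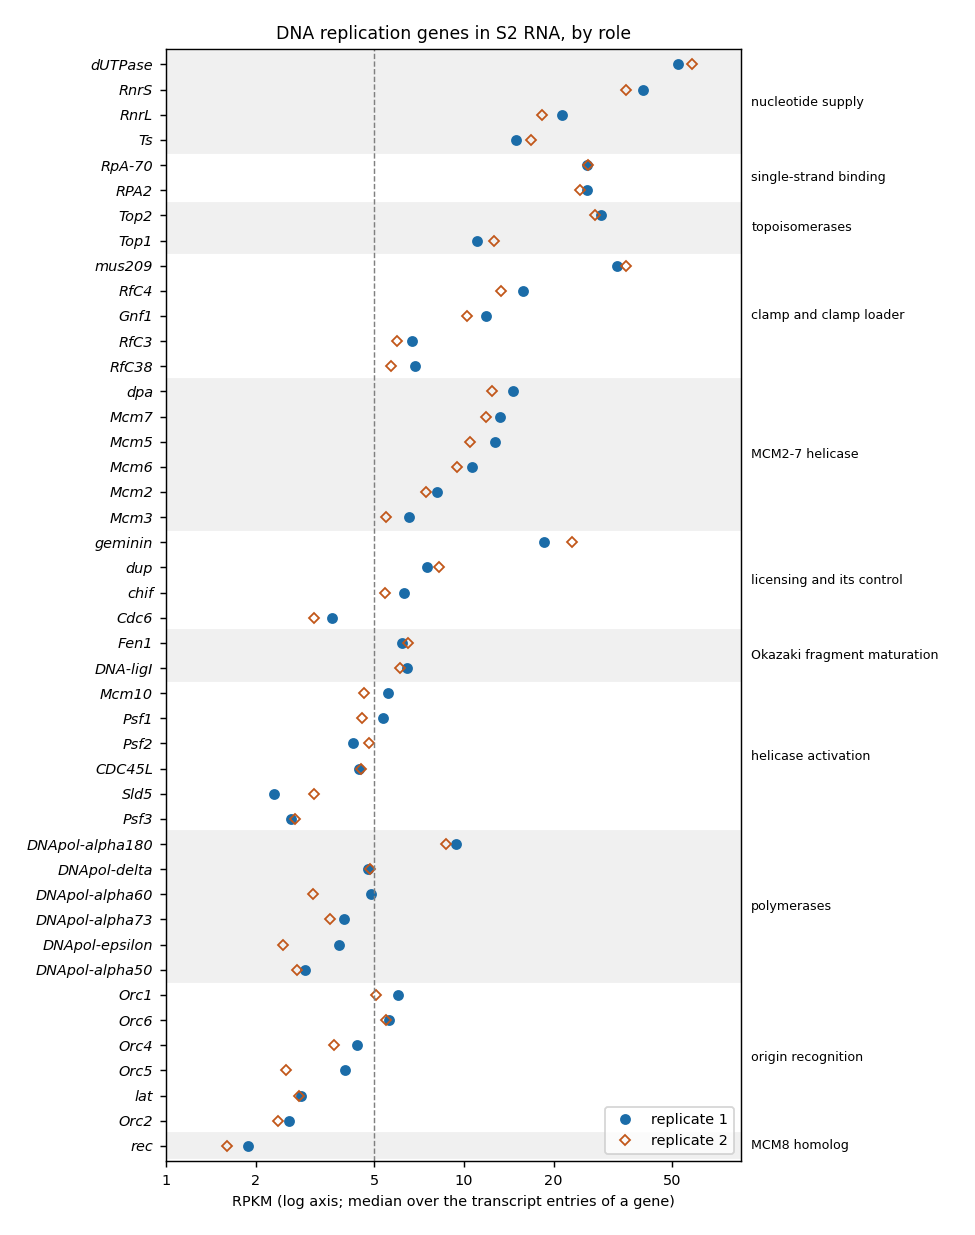
RPKM of each of the 44 replication genes (x axis, logarithmic) in replicate 1 (filled circles) and replicate 2 (open diamonds) of S2 RNA, grouped by role and ordered by the combined level of the group. The dashed line is at 5 RPKM, and all nucleotide supply genes lie at 14.96 RPKM or above while all origin recognition genes lie at 6.01 RPKM or below.

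The nucleotide supply genes were the highest group. Their combined level was 27.2 RPKM, and the 4 genes held 26.7% of the summed RPKM of all 44. dUTPase, which removes dUTP and yields the precursor of thymidylate, had 52.4 and 58.1 RPKM in replicates 1 and 2, or 55.2 ± 4.08 RPKM (SD, n = 2). It was the highest replication gene in both libraries and higher than 97.4% of all genes. Its 4 entries lay close together, from 49.9 to 55.1 RPKM in replicate 1. An antisense RNA overlaps dUTPase in the RefSeq table and was not among the entries, and whether reads were counted by strand is not stated in the sources used here.

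Ribonucleotide reductase makes deoxyribonucleotides from ribonucleotides and consists of a large and a small subunit. The small subunit gene RnrS had 39.8 and 34.9 RPKM. The large subunit gene RnrL had 21.3 and 18.2 RPKM. RnrS was above RnrL by 1.87-fold in replicate 1 and 1.91-fold in replicate 2, a ratio that varied by an SD of 0.0305. Ts, thymidylate synthase, was the lowest of the group at 14.96 and 16.8 RPKM. dUTPase, which supplies its substrate, was 3.501 and 3.458 times as high. The lowest value of the nucleotide supply genes was above the highest of the MCM helicase genes, but narrowly, at 14.96 RPKM for Ts in replicate 1 against 14.6 RPKM for dpa in the same library.

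Replication protein A (RPA) covers the single strands that the helicase exposes. The large subunit gene RpA-70 had 26.0 and 26.2 RPKM, and RPA2, the gene of the middle subunit, had 25.9 and 24.4 RPKM. Their ratio was 1.002 in replicate 1 and 1.071 in replicate 2, the narrowest range among the complexes examined. Only 2 of the subunit genes of RPA were measured here, and a range over fewer genes tends to be narrower. The topoisomerases relieve the twist ahead of the fork. Top2, which also untangles sister chromatids before mitosis, had 28.8 and 27.4 RPKM. Top1 had 11.1 and 12.6 RPKM. Top2 was higher in both libraries, by 2.60-fold and 2.18-fold. The 4 entries of Top1 ranged from 10.6 to 12.6 RPKM in replicate 1 and from 12.1 to 14.3 RPKM in replicate 2. Each entry was higher in replicate 2, but entries of 1 gene share reads and are not separate measurements.

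The sliding clamp and its loader differed from each other. mus209 encodes PCNA, the clamp that tethers polymerases to DNA. It had 32.6 and 35.1 RPKM, or 33.8 ± 1.79 RPKM (SD, n = 2), and came next in mean after dUTPase and RnrS, with values that overlapped those of RnrS. Both of its entries rested on the same minimum reads, 1231 in replicate 1 and 340 in replicate 2, so the reads were assigned to each entry. A related gene, CG10262 (PCNA2 in RefSeq), was at 0.287 and 0.306 RPKM.

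Replication factor C opens the clamp and places it on DNA. The subunit gene RfC4 was at 15.8 and 13.4 RPKM. Gnf1, which encodes the large subunit, was at 11.8 and 10.2 RPKM. The other subunit genes of the list were lower, with RfC3 at 6.71 and 5.94 RPKM and RfC38 at 6.87 and 5.70 RPKM. These subunits were 2.32-fold apart from highest to lowest mean. The values of RfC3 and RfC38 overlapped. mus209 was above each of the 4 loader genes measured in both libraries, by 2.07-fold and 2.63-fold over RfC4.

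The MCM helicase unwinds the DNA at the fork and holds equal numbers of its 6 subunits. Their genes had a combined level of 10.7 RPKM and all reached 5 RPKM. dpa, which encodes Mcm4, was highest at 14.6 and 12.4 RPKM. Mcm7 had 13.2 and 11.9 RPKM, and Mcm5 had 12.7 and 10.5 RPKM. These 3 genes overlapped in their replicate values. Mcm6 followed at 10.6 and 9.46 RPKM. Mcm2 had 8.15 and 7.47 RPKM, and Mcm3 was lowest at 6.53 and 5.47 RPKM. The ratio of dpa to Mcm3 was 2.24 in replicate 1 and 2.27 in replicate 2, so the unequal RNA of these subunits held in both libraries. An antisense RNA overlaps most of Mcm7 in the RefSeq table and was not among the entries.

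rec encodes the fly homolog of MCM8, known for its role in meiotic crossing over rather than in the replicative helicase. It was the lowest of all 44 genes, at 1.88 and 1.61 RPKM, below every value of the MCM helicase genes. Its median was 6.19-fold below theirs in each library. One of its 2 entries had 1.99 and 1.78 RPKM, and the other had 1.78 and 1.43 RPKM.

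The 6 genes grouped here under helicase activation, which leave out chif, had a lower combined level than those that form the ring. Their combined level was 4.50 RPKM, with 1 of 6 at 5 RPKM. Mcm10, needed to start unwinding, had 5.57 and 4.61 RPKM. CDC45L, the Cdc45 gene, had 4.44 and 4.52 RPKM. Most of its locus overlaps the gene su(w[a]), which was at 3.56 and 4.17 RPKM. The GINS complex holds 4 subunits. Psf1 was at 5.34 and 4.57 RPKM and Psf2 at 4.26 and 4.81 RPKM. Sld5 had 2.30 and 3.13 RPKM, and Psf3 had 2.64 and 2.72 RPKM. The highest value in this group of 6, 5.57 RPKM for Mcm10, overlapped the lowest of the MCM genes, 5.47 RPKM for Mcm3.

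Origin recognition genes had the lowest combined level of the groups with more than 1 gene, 3.58 RPKM, with medians of 4.18 and 3.23 RPKM. Orc1, the subunit that varies through the cell cycle in flies, was at 6.01 and 5.08 RPKM. Orc6 was at 5.63 and 5.46 RPKM. These overlapped and were the only ORC genes with a mean of 5 RPKM or more. Orc4 had 4.36 and 3.66 RPKM, and Orc5 had 3.999 and 2.53 RPKM. lat, which encodes Orc3 and was named for a learning phenotype, had 2.85 and 2.80 RPKM. Orc2 was lowest at 2.60 and 2.38 RPKM. Orc1 was 2.31-fold and 2.14-fold above Orc2.

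The value of lat is a median of 2 entries that differed more than those of any other member. One had 3.21 and 3.17 RPKM and the other 2.49 and 2.43 RPKM. The lower pair of values was also listed for CG34315, a gene that overlaps lat, so this entry of lat shares its reads with that gene.

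The genes grouped under licensing and its control spanned a wide range. geminin encodes the inhibitor of Cdt1, which keeps origins from being licensed again in S phase and G2 phase. It had 18.6 and 23.0 RPKM. Its target, the Cdt1 gene dup, had 7.51 and 8.26 RPKM. The inhibitor was above its target by 2.47-fold in replicate 1 and 2.78-fold in replicate 2. Cdc6, the partner of ORC in loading, had 3.62 and 3.14 RPKM. Most of its locus overlaps Zasp66, which was at 0.361 and 0.277 RPKM. chif, a fly relative of Dbf4, the activating subunit of the Cdc7 kinase, was at 6.28 and 5.45 RPKM. It was placed in this group, although that kinase acts on the loaded ring, after licensing. Counted with the helicase activation genes, chif would be the highest of them, and their values would overlap those of the Okazaki fragment genes. The chif locus is shared in the RefSeq table with Hyls1, at 6.46 and 7.81 RPKM.

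The polymerases that copy the genome had a combined level of 3.84 RPKM, and 1 of the 6 genes reached 5 RPKM. DNApol-alpha180, the catalytic subunit of polymerase alpha, had 9.38 and 8.70 RPKM. It belongs to the complex that lays down primers. The other subunit genes of this complex were lower and closer together, with DNApol-alpha73 at 3.96 and 3.57 RPKM and the primase genes DNApol-alpha60 at 4.88 and 3.12 RPKM and DNApol-alpha50 at 2.94 and 2.75 RPKM. The complex was 3.18-fold apart from highest to lowest mean, the widest range of the 7 complexes. DNApol-alpha50 shares its locus with CG7083, at 5.21 and 6.38 RPKM.

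Polymerase delta extends mainly the lagging strand and polymerase epsilon the leading strand. DNApol-delta, the gene of the catalytic subunit of polymerase delta, had 4.75 and 4.84 RPKM. DNApol-epsilon, that of polymerase epsilon, had 3.83 and 2.48 RPKM. DNApol-delta was higher in both libraries. PCNA, the clamp on which polymerase delta runs, had 6.85-fold and 7.26-fold the level of this gene. Of the enzymes that finish Okazaki fragments, the flap nuclease gene Fen1 was at 6.19 and 6.48 RPKM and DNA-ligI, the gene of the ligase that seals the nicks, was at 6.43 and 6.11 RPKM. Their values overlapped, with ratios of 0.963 and 1.06.

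**Figure D3:**
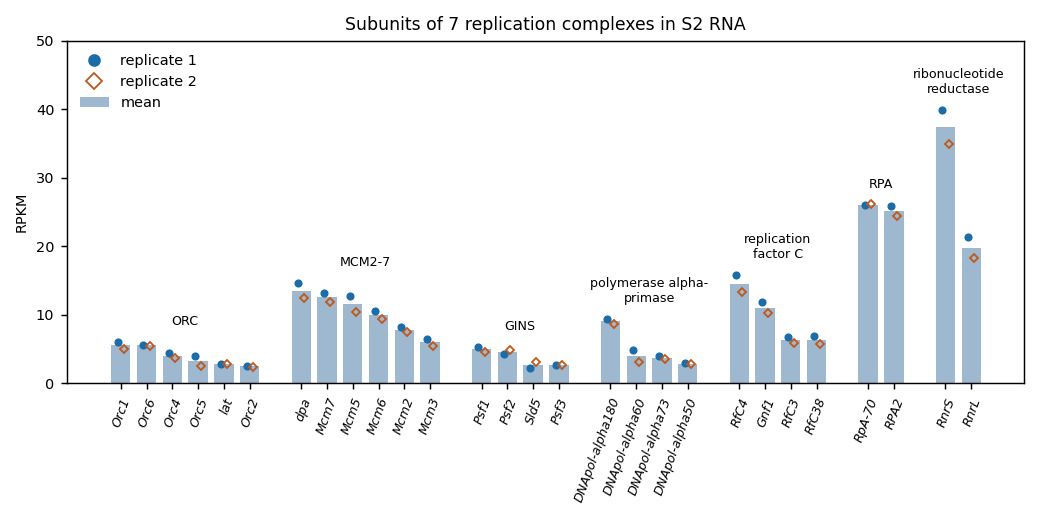
RPKM (y axis, from 0) of the subunit genes of 7 complexes in S2 RNA, with bars for the mean and points for replicate 1 (filled circles) and replicate 2 (open diamonds). Subunits of RPA are 1.04-fold apart in their means, and those of polymerase alpha-primase 3.18-fold.

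Subunits of a complex were set side by side since the proteins assemble in fixed proportions. From highest to lowest mean RPKM, the range was 1.04-fold for RPA, 1.85-fold for GINS, 1.89-fold for ribonucleotide reductase, 2.23-fold for ORC, 2.26-fold for the MCM helicase, 2.32-fold for replication factor C and 3.18-fold for polymerase alpha-primase. Computed within each library, the range of GINS was 2.32-fold in replicate 1 and 1.77-fold in replicate 2, and the order of its subunits differed between the libraries. Sld5 was its lowest gene in replicate 1 and Psf3 in replicate 2. The 24 genes that overlap another gene in the RefSeq table include 7 for which the overlap covers most of the locus. They are lat, Cdc6, chif, Mcm7, CDC45L, DNApol-alpha50 and dUTPase. Whether reads of the partners were told apart is not stated, so the levels of these genes are less certain than those of genes without overlap. The other overlaps cover less of the locus, and their partners were higher than the replication gene in some cases and lower in others. DNApol-delta overlaps Arl1, at 16.3 and 13.4 RPKM, and Orc6 overlaps Sting, at 15.5 and 11.4 RPKM. Orc5 overlaps GatC and PolG2, both listed at 7.36 and 7.03 RPKM, while Mcm10 overlaps Ret, at 0.354 and 0.223 RPKM. Such overlaps limit the levels of these genes too.

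The last question was how far the replicates of these genes agree, since it limits all of the above. The median SD was 8.60% of the mean. Of the 44 genes 31 were lower in replicate 2 (70.5%), against 47.7% of the 7548 expressed genes. The median log2(RPKM + 1) difference, replicate 2 minus replicate 1, was -0.12 for the replication genes and 0.01 for the expressed genes. All 6 MCM helicase genes, all 6 ORC genes and the 4 replication factor C genes measured were lower in replicate 2. Not every group moved this way. Of the 6 helicase activation genes 4 were higher in replicate 2, and of the 6 polymerase genes 1 was. dUTPase, Ts, mus209, geminin, dup and Top1 were among the 13 that were higher. After scaling the libraries to an equal median over expressed genes, 32 of the 44 were lower in replicate 2, against 50.8% of expressed genes.

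Whole reads recovered from the RPKM values allowed genes with an entry above 0 in both libraries to be tested for a difference beyond counting error. This was an exact two-sided binomial test with Benjamini-Hochberg adjustment over all 9731 genes tested. An adjusted p under 0.05 was found for 8 of the 44 genes (18.2%), against 13.9% of all genes tested. Called as lower in replicate 2 were 7 of the 44 (15.9%), against 5.16% of all genes tested, and called as higher was 1 of the 44 (2.27%), against 8.69%. The 9731 genes tested outnumber the 7548 expressed genes, so they include genes below 1 RPKM, where fewer reads make a call less likely. All 44 replication genes lay above 1 RPKM, so these shares are not matched for depth. The test compares 1 library with the other and says nothing of a condition.

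DNApol-epsilon differed most clearly. Its entry held a minimum of 971 and 161 reads in replicates 1 and 2. Per library size the ratio of replicate 2 to replicate 1 was 0.647, with an exact 95% interval from 0.544 to 0.765 (adjusted p = 2.59e-06 in the exact binomial test). Orc5 had a ratio of 0.632 (0.441 to 0.885, adjusted p = 0.0406) and the primase gene DNApol-alpha60 one of 0.640 (0.468 to 0.860, adjusted p = 0.0208) in the same exact test. These genes fell furthest in replicate 2. Smaller differences were called for Mcm5 at a ratio of 0.824, dpa at 0.849, RnrL at 0.856 and RnrS at 0.875. Top1 was the gene that was higher, at 1.14 (1.04 to 1.25, exact test, adjusted p = 0.0405). geminin had a ratio of 1.24 (1.053 to 1.446) and did not pass the exact test (adjusted p = 0.0565). Top1 was not called after the libraries were brought to an equal median, and neither Top1 nor dpa when the entry nearest the gene median was tested. Without a minimum number of reads dpa was not called.

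**Figure D4:**
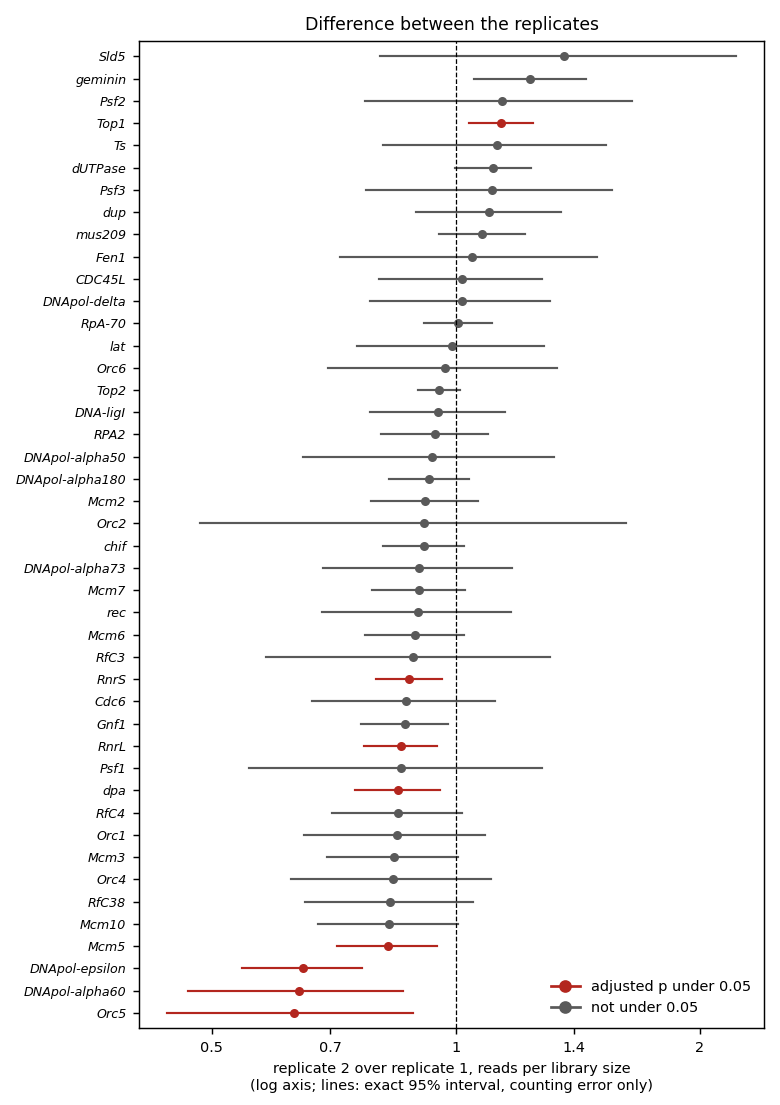
Ratio of replicate 2 to replicate 1 for each of the 44 replication genes (x axis, logarithmic), from recovered reads per library size, with exact 95% intervals that cover counting error only. Red marks the 8 genes with an adjusted p under 0.05, of which Orc5, DNApol-alpha60 and DNApol-epsilon lie lowest, at 0.632 to 0.647, and Top1 is the one above 1.

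Other genes of replication and its control were set beside the 44. Of 16 genes listed for S-phase control 10 reached 5 RPKM, with a combined level of 9.75 RPKM. The highest was stg, on this list although it is the Cdc25 phosphatase gene that triggers mitosis, at 31.2 and 27.2 RPKM. The lowest was Rbf2, one of the fly retinoblastoma genes that restrain E2F, at 2.36 and 1.998 RPKM. Of 20 other polymerase, fork and chromatin assembly genes 10 reached 5 RPKM, with a combined level of 5.02 RPKM. They ranged from Caf1, the histone-binding subunit shared by chromatin assembly factor 1 and Polycomb complexes, at 32.1 and 30.6 RPKM, down to mus205, the catalytic subunit of translesion polymerase zeta, which had the lowest mean at 2.36 and 2.14 RPKM. Of 7 further nucleotide supply genes 6 reached 5 RPKM, with a combined level of 9.18 RPKM, below the 27.2 RPKM of the 4 members of that role. Among the 7, awd, nucleoside diphosphate kinase, was far above the rest at 156 and 161 RPKM. The exception was Prat2, one of the purine synthesis genes, with 0.0365 RPKM in replicate 1 and 0 in replicate 2, under the limit that 3 reads on 1 kb set in both libraries. The difference between the replicates passed the exact binomial test for 3 of the 16 genes of the S-phase list, stg among them. It passed for 3 of the 20 polymerase and fork genes and none (0) of the 7 nucleotide supply genes, against 13.9% of all genes tested. Prat2, at 0 in replicate 2, was not tested.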

How the data were processed

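Total RNA of S2 cells was depleted of ribosomal RNA and sequenced as 50 bp single-end reads. The authors used TopHat for alignment, against fly genome release 5. They deposited RPKM per RefSeq transcript for each replicate. The program that made these values, and its treatment of strand, of multiply aligned reads and of shared reads, are not given in the sources used here.

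Gene levels are medians over transcript entries. Combined levels were averaged on the log2(RPKM + 1) scale, with a pseudocount of 1, and converted back. Names and overlaps came from the RefSeq table of Release 6, matched by transcript, which held all 44 genes. It is not the release used for alignment, so no coordinates are given.

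RPKM from whole reads leaves a ratio of whole numbers between the libraries. Of the 23661 entries with values in both, 99.8% gave whole reads, that is, a ratio of whole numbers within a relative tolerance of 1.2e-09 plus 6e-10 RPKM for the rounding of each value. A factor common to reads and length cannot be seen, so reads are minimum values. For 9 of the 44 genes the length allows a larger factor, which would narrow their intervals and change their p-values. All other genes tested rest on minimum reads too, and so do the shares called. The best covered entry of each gene was tested with SciPy 1.17.1 if it had at least 10 reads over both libraries. Only entries above 0 in both libraries were used. Genes without such an entry were not tested, and the shares called leave them out. The recovery was checked on simulated data. The test was checked on simulated reads directly, not on recovered minimum reads. That check used genes with more reads than the minimum tested here, a larger change than any called among the 44 genes, and counting error only. Intervals and floors cover counting error only, since reads are not independent molecules.

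All genes of the list with a row are named. Of the other pathway lists the highest and lowest are named. The markers named, IntS4, CG10262 and the overlapping genes were chosen after their values were seen. The members, lists and tests were chosen with earlier results of these data known. The labels list the replicates as separate samples, and the study calls them biological. A single group of 2 libraries allows no test over samples. Alternatives were a pseudocount of 0.1, other summaries of entries, scaling to an equal median, each replicate alone, other thresholds and protein-coding genes. A test with no minimum number of reads was chosen after seeing the data.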

Additional observations from a re-analysis of the deposited data

How the results depend on the processing

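No paired analysis was possible because 1 group of samples was analysed and nothing was compared between groups. The comparison of Ph-ML with Ph-WT and the planned searches of promoters and proteins, whose sequences were not analysed here, were not run. The 28 genes that reached 5 RPKM became 44 at 1 RPKM and 16 at 10 RPKM, by the construction of the threshold. Each replicate alone gave a range of subunit levels from 2.299 to 2.314 for ORC, from 1.770 to 2.319 for GINS and from 2.342 to 2.348 for replication factor C, because the highest and lowest subunits are then chosen within 1 library. Another pseudocount, entry summary or scaling moved the combined levels of all 44 genes and of the origin recognition, MCM helicase, polymerase, clamp and nucleotide supply genes by less than the SD over replicates. A replicate alone gave 5.823 to 6.476 RPKM for all 44 genes, a move which that SD cannot judge. The level of the topoisomerases (18.3 RPKM) went from 18.00 to 19.8 and that of the licensing genes (6.80 RPKM) from 6.73 to 6.96 over the alternatives that moved them by more than their SD. Likewise helicase activation was at 4.35 RPKM without replicate 2 and Okazaki fragment maturation at 6.25 RPKM with scaling. The 8 genes that differed between the replicates became 7 with scaling, 6 with the entry nearest the gene median, 8 among protein-coding genes and 7 with no minimum number of reads. Depth limits the genes with the fewest reads, such as Sld5 with at least 66 and 23 reads. The interval of its ratio between libraries spans 0.807 to 2.22. Orc2 had at least 64 and 15 reads and an interval of 0.484 to 1.62. Its length allows a larger common factor, so Orc2 may have had more reads and a narrower interval.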

Other observations

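The replicate difference was set against transcript length over the 44 genes. The log2 ratio of replicate 2 to replicate 1 and the log2 of the recovered length had a Pearson r of -0.36. This is a correlation across genes within the same 2 libraries, the recovered lengths are minimum values, and it is given as a description without a test. The 2 longest recovered transcripts were DNApol-epsilon with 6849 bases and a ratio of 0.647, and chif with 6596 bases and a ratio of 0.913. The next in length were Top1 with 5325 bases and a ratio of 1.14, on the other side of 1, and Top2 with 5242 bases and a ratio of 0.953.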
